A study of Mus musculus with 12 samples.

Results

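The 9 genes described here encode the enzymes that make serine from a glycolytic intermediate and pass its carbon into the folate pool. They were chosen by symbol, as Phgdh, Psat1, Psph, Shmt1, Shmt2, Mthfd1, Mthfd2, Mthfd1l and Aldh1l2. All 9 were measured, among 19938 genes tested. Each gene was read from the transcript cluster (the array's unit for 1 transcript) annotated to its symbol, and where a gene had several clusters the one with the highest mean was used.

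The cells were NIH3T3, a mouse embryonic fibroblast line, exposed to difluoromethylornithine (DFMO), an inhibitor of ornithine decarboxylase, the enzyme that makes putrescine, so that polyamines run down. Cells in the G1 phase were sorted, and their total RNA was hybridised to Affymetrix MoGene 1.0 ST arrays, to follow the response over time. The groups were untreated cells (3 arrays, taken as 0 h) and cells kept in 1 mM DFMO for 12 h (2 arrays), 24 h (3 arrays), 48 h (2 arrays) and 96 h (2 arrays), all of the same line and all called biological replicates in the labels. DFMO was given a day after the cells were seeded. Later untreated cultures were not analysed here, so time in culture and time in the drug cannot be told apart.

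Serine synthesis begins with Phgdh, which oxidises a phosphorylated intermediate of glycolysis, continues with the aminotransferase Psat1 and ends with the phosphatase Psph. Serine hydroxymethyltransferases then move a carbon from serine onto tetrahydrofolate and leave glycine, Shmt1 in the cytosol and Shmt2 in mitochondria. In the cytosol, Mthfd1 interconverts the folate forms that carry this carbon. In mitochondria, Mthfd2 oxidises the folate-bound carbon, Mthfd1l releases it as formate for export, and Aldh1l2 burns it to carbon dioxide while making NADPH. Proliferating fibroblasts use this carbon for purines and thymidylate. It also feeds the methionine cycle, whose S-adenosylmethionine donates the aminopropyl groups of spermidine and spermine. Several of these genes are known targets of ATF4, the transcription factor of the amino acid response.

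Values were the authors' log2 levels after RMA, a method that corrects background, brings all arrays to 1 distribution and summarises the probes of a cluster. Array medians lay between 4.13 and 4.20, and across genes Pearson's r between replicates was 0.994 to 0.998. The number of arrays, 2 or 3 in a group, limits the precision, and p-values measure the spread between these arrays. The third untreated, the second 12 h and the third 24 h array deviated from their group means alike across genes, with r of 0.318, 0.581 and 0.209 between them. With these 3 left out together, a choice made after seeing the data, the calls of Aldh1l2 and Shmt1 against untreated cells changed. The log2 change was 0.85 for Aldh1l2 at 48 h and -0.42 for Shmt1 at 96 h. With all 12 arrays these changes were 0.82 and -0.45. Of 14 fibroblast markers measured, the median untreated level was 10.16, although Postn (3.88) and Dcn (3.72) were near the floor of the arrays. The medians of 14 leukocyte, 11 epithelial, 9 endothelial and 6 adipocyte markers were 3.66, 3.54, 3.52 and 3.56, with Krt14 (8.83) and Flt1 (7.64) well above the rest of their lists. At 96 h 7 of the 14 fibroblast markers were lower and 2 higher than in untreated cells. Over all genes 10.1% were called lower and 11.8% higher. The mean level of Dcn was 8.09 at 96 h, no longer near the floor. Of the other lists 1 leukocyte, 1 epithelial and 1 endothelial marker were higher and 1 epithelial marker lower, with 0 of 6 adipocyte markers called (limma, 1 at an unadjusted p under 0.05). The part of these changes in the results was not tested. Because RNA was taken from many cells together, fewer cells of a type and less RNA per cell cannot be told apart.

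The promoters of 4 members that were lower at 96 h are shown, Psat1 and Mthfd2 because they hold CCAAT boxes and Shmt2 and Mthfd1l because they hold none. The sequences are RefSeq's, for GRCm38.p6, and run 5′ to 3′ on the gene's strand from 250 bases before the annotated start to 50 bases after it. They lie at chr19:15925010-15925309 (minus strand) for Psat1, chr6:83317555-83317854 (minus strand) for Mthfd2, chr10:127522395-127522694 (minus strand) for Shmt2 and chr10:3972825-3973124 (plus strand) for Mthfd1l. Capitals mark CCAAT or its reverse complement ATTGG.
Psat1: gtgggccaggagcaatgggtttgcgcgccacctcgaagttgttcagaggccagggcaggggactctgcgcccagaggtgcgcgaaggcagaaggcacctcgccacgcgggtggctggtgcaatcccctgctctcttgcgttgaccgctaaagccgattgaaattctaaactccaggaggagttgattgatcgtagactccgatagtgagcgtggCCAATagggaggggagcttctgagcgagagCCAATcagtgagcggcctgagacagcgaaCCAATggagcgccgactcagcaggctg
Mthfd2: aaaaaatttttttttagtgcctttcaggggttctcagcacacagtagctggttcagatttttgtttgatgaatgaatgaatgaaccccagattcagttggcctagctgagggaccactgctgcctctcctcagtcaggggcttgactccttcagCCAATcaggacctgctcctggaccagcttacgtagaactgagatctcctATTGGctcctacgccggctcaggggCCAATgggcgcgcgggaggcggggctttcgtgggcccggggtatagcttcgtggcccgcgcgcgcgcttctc
Shmt2: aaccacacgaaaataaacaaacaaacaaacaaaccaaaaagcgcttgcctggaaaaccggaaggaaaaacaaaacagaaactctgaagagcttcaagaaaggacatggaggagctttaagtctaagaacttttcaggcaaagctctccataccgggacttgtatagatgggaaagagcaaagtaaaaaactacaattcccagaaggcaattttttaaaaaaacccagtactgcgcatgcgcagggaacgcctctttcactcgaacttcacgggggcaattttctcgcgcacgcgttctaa
Mthfd1l: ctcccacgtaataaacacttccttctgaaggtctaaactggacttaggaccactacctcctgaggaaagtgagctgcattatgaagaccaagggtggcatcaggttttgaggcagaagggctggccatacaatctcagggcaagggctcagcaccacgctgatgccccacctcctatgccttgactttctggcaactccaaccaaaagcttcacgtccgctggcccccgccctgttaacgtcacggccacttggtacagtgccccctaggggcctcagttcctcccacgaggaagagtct

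Promoter windows matched 8 of the 9 members, all but Aldh1l2. Each was searched on both strands for CCAAT, for an ATF4-type element (TGATGNAA), an E-box (CACGTG), an E2F-type element (TTTNNCGC) and a CRE core (TGACGTCA). CCAAT occurred in 6 of the 8 members (Phgdh, Psat1, Psph, Shmt1, Mthfd1 and Mthfd2). Counted by window it occurred in 6 of the members' 9, against 37.4% of all 32851 windows. In Psat1 it stood at bases -36 to -32, -6 to -2 and 23 to 27 from the start, and in Mthfd2 at -96 to -92, -47 to -43 and -22 to -18. The E2F-type letters occurred in Psph and, at bases 29 to 36, in Shmt2, or 2 of the 9 windows, against 5.17% of all windows. The ATF4-type element (3.97% of windows), the E-box (7.15%) and the CRE core (1.79%) were found in 0 of the 8. Psat1 has 2 annotated windows, and the second held none of these letters. A match describes the letters of a window and is not a binding site.

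At 96 h of DFMO 7 of the 9 transcripts were lower than in untreated cells at an adjusted p under 0.05 in limma, and 0 were higher. Over all genes 10.1% were called lower and 11.8% higher in that comparison. The median log2 change of the 9 was -1.32, against 0.00 for all genes. All 9 had both 96 h arrays below all 3 untreated arrays, which held for 21.4% of all genes. Without the first 96 h array 4 of the 9 were called lower. At 12 h and at 24 h limma called 0 of the 9, and 0 passed even an unadjusted p of 0.05, with 0% of all genes called. At 48 h it also called 0 of the 9, of which 2 had an unadjusted p under 0.05, where 2.65% of all genes were called higher and 3.17% lower. The medians of the 9 log2 changes at the 3 times before 96 h were -0.06 (12 h), -0.05 (24 h) and 0.09 (48 h).

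**Figure D1:**
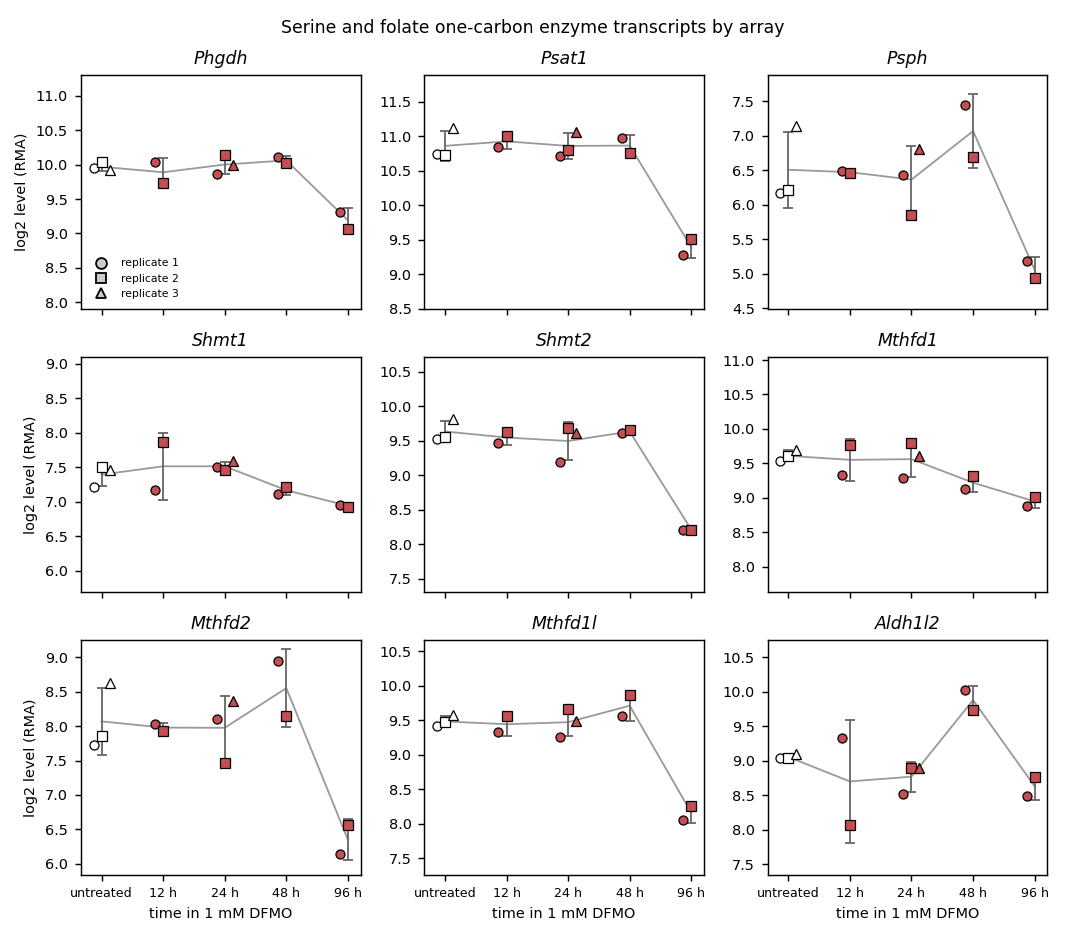
Log2 level (RMA) of each of the 9 transcripts on each of the 12 arrays, by time in 1 mM DFMO. Points are arrays, with open points for untreated cells and shapes for replicate numbers, lines join the group means and bars are the SD. Both 96 h arrays lie below all untreated arrays in every panel, and Aldh1l2 is highest at 48 h.

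Among the enzymes of serine synthesis, Psat1 and Phgdh passed no test through 48 h, and both fell at 96 h. Psat1 had log2 levels of 10.74, 10.73 and 11.12 on the untreated arrays, 10.85 and 11.00 at 12 h, 10.71, 10.80 and 11.07 at 24 h, then 10.98 and 10.75 at 48 h, and 9.28 and 9.51 at 96 h. Its 96 h arrays were lower than all 10 others, which overlapped one another. Psat1 averaged 9.39 ± 0.16 at 96 h (SD, n = 2) and 10.86 ± 0.22 in untreated cells (SD, n = 3). Its log2 change was -1.47 ± 0.15 (SE, limma adjusted p = 9.45e-05), or 2.77-fold lower. The change at 48 h was 0.00, with a 95% interval of -0.33 to 0.34.

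Phgdh, the entry step of the route, had log2 levels of 9.95, 10.04 and 9.91 on the untreated arrays, 10.04 and 9.74 at 12 h, 9.86, 10.14 and 10.00 at 24 h, then 10.11 and 10.02 at 48 h, and 9.32 and 9.07 at 96 h. Here too the 96 h arrays were the lowest of all and the other groups overlapped. Phgdh was 1.71-fold lower at 96 h than in untreated cells, a log2 change of -0.78 ± 0.11 (SE, limma adjusted p = 0.000904). A further cluster carries the names of both Phgdh and Gm6756 and may therefore read either. It changed by -0.83 (adjusted p = 0.000665) in the same limma comparison.

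Psph, the last enzyme of the route, had the widest spread between replicates of the 9. Its log2 levels were 6.17, 6.22 and 7.14 on the untreated arrays, 6.48 and 6.46 at 12 h, 6.43, 5.86 and 6.81 at 24 h, then 7.45 and 6.69 at 48 h, and 5.18 and 4.93 at 96 h. The untreated and 48 h arrays overlapped, and the 96 h arrays were below all others. Psph fell by 1.45 on the log2 scale at 96 h (SE 0.35, limma adjusted p = 0.0148), or 2.73-fold. This call was lost without the first 96 h array (adjusted p = 0.0579) or without the second (adjusted p = 0.107). At 48 h the log2 change against untreated cells was 0.56 ± 0.35 (SE, limma adjusted p = 0.423). With the replicate number as a block Psph was called higher at 48 h, by 0.83 (adjusted p = 0.0358).

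Of the hydroxymethyltransferases, Shmt2 passed the test at 96 h and Shmt1 did not. Shmt2, the mitochondrial enzyme, had log2 levels of 9.53, 9.56 and 9.81 on the untreated arrays, 9.47 and 9.62 at 12 h, 9.19, 9.69 and 9.62 at 24 h, then 9.61 and 9.66 at 48 h, and 8.21 and 8.21 at 96 h. Both 96 h arrays were well below the rest, and all earlier groups overlapped. Shmt2 was 2.68-fold lower at 96 h than in untreated cells, with a log2 change of -1.42 ± 0.14 (SE, limma adjusted p = 8.02e-05). The change at 48 h was 0.00, with a 95% interval of -0.31 to 0.31.

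Shmt1, its cytosolic counterpart, had log2 levels of 7.21, 7.51 and 7.47 on the untreated arrays, 7.17 and 7.86 at 12 h, 7.50, 7.45 and 7.59 at 24 h, then 7.12 and 7.22 at 48 h, and 6.95 and 6.93 at 96 h. The 96 h arrays were again the lowest, but only a little below the 48 h arrays and the lowest 12 h array. Its log2 change at 96 h was -0.45 ± 0.17 (SE), with a 95% interval of -0.83 to -0.07, and did not pass the test (limma adjusted p = 0.0946). With only genes of a mean log2 level of at least 5 tested, the adjusted p was 0.0439. It was 0.00688 without the first or the second 12 h array and 0.0268 with only the 96 h and untreated arrays.

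Of the folate enzymes downstream, Mthfd1, the cytosolic enzyme with several activities on 1 chain, had log2 levels of 9.53, 9.61 and 9.69 on the untreated arrays, 9.34 and 9.77 at 12 h, 9.29, 9.79 and 9.60 at 24 h, then 9.13 and 9.31 at 48 h, and 8.88 and 9.01 at 96 h. It was the only member besides Aldh1l2 whose 48 h arrays did not overlap the untreated ones, and they lay below. Over all genes 40.9% had no overlap in that comparison. Its log2 change was -0.39 ± 0.16 at 48 h (SE, limma adjusted p = 0.201) and -0.66 ± 0.16 at 96 h (SE, adjusted p = 0.0128). The 96 h call was lost without the first 96 h array (adjusted p = 0.0978).

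Mthfd2, the mitochondrial dehydrogenase and cyclohydrolase, had the largest decrease of the 9 at 96 h and, after Psph, the widest spread between replicates. Its log2 levels were 7.73, 7.86 and 8.62 on the untreated arrays, 8.03 and 7.93 at 12 h, 8.10, 7.46 and 8.37 at 24 h, then 8.95 and 8.15 at 48 h, and 6.14 and 6.56 at 96 h. Both 48 h arrays were above both 12 h arrays. The untreated and 24 h arrays overlapped each other and both of these groups, and the 96 h arrays were below them all. Mthfd2 averaged 6.35 ± 0.30 at 96 h (SD, n = 2) and 8.07 ± 0.48 in untreated cells (SD, n = 3). It was 3.28-fold lower, with a log2 change of -1.71 ± 0.34 (SE, limma adjusted p = 0.00536). Without the first 96 h array the change was -1.51 (adjusted p = 0.0571).

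Mthfd1l, the mitochondrial enzyme that releases formate, was steadier. It had log2 levels of 9.41, 9.47 and 9.57 on the untreated arrays, 9.32 and 9.56 at 12 h, 9.25, 9.67 and 9.49 at 24 h, then 9.55 and 9.87 at 48 h, and 8.06 and 8.26 at 96 h. The 96 h arrays stood below all 10 others. Mthfd1l was 2.5-fold lower at 96 h than in untreated cells, with a log2 change of -1.32 ± 0.14 (SE, limma adjusted p = 0.000112). At 48 h its change was 0.23 ± 0.14 (SE, adjusted p = 0.404).

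Aldh1l2, the mitochondrial formyl-tetrahydrofolate dehydrogenase, had its highest arrays at 48 h. Its log2 levels were 9.03, 9.03 and 9.10 on the untreated arrays, 9.33 and 8.07 at 12 h, 8.52, 8.89 and 8.90 at 24 h, then 10.03 and 9.73 at 48 h, and 8.49 and 8.77 at 96 h. The 48 h arrays were above all 10 others, and the 12 h arrays were the pair farthest apart. Against untreated cells the log2 change was 0.82 ± 0.30 at 48 h (SE, limma adjusted p = 0.153) and -0.43 ± 0.30 at 96 h (SE, adjusted p = 0.425), so neither passed. At 48 h it did pass without the first 12 h array or without the second (adjusted p = 0.0126). With only the arrays of both groups compared it passed at 48 h (adjusted p = 0.0163) and, as lower, at 96 h (adjusted p = 0.0246).

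**Figure D2:**
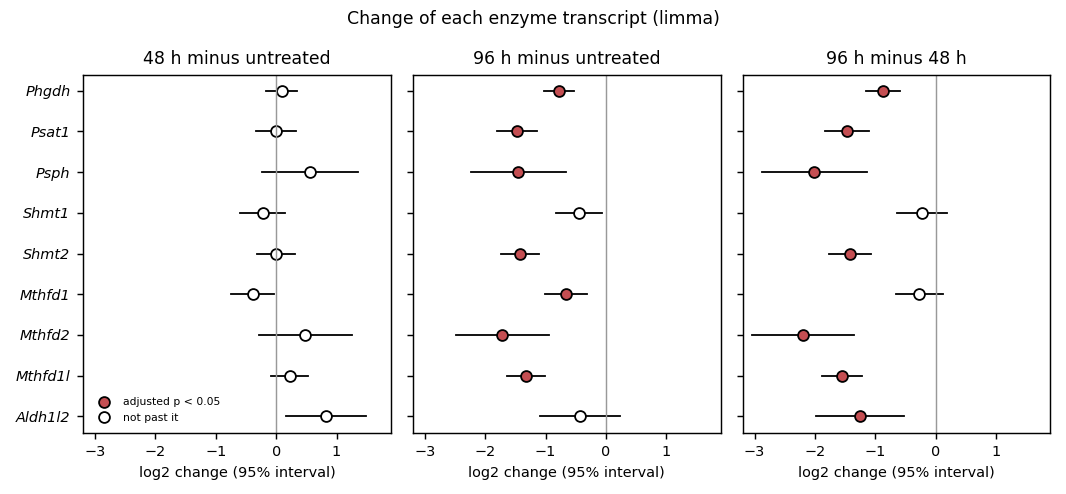
Log2 change of each of the 9 transcripts with its 95% interval from limma, for 48 h minus untreated, 96 h minus untreated and 96 h minus 48 h. Filled points passed an adjusted p of 0.05, which 0, 7 and 7 of the 9 did, all of them lower.

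The comparison of 96 h with 48 h uses no untreated array in its contrast. At 96 h 7 of the 9 were lower than at 48 h and 0 were higher in limma, where 4.29% of all genes were called lower and 4.35% higher. All 9 had both 96 h arrays below both 48 h arrays, which held for 20.5% of all genes. Psat1 changed by -1.47 (adjusted p = 0.000522), Shmt2 by -1.42 (adjusted p = 0.000459) and Mthfd1l by -1.55 (adjusted p = 0.000233) on the log2 scale. For Psph (-2.01, adjusted p = 0.0115) and Mthfd2 (-2.20, adjusted p = 0.00647) the 48 h means, 7.07 for Psph and 8.55 for Mthfd2, were the highest of the 5 group means. Phgdh changed by -0.87 (adjusted p = 0.00259). For Phgdh, Mthfd1l and Aldh1l2, too, the 48 h mean was the highest of the 5. Aldh1l2 fell by 1.25 on the log2 scale (adjusted p = 0.0437), to a mean of 8.63 at 96 h, against 9.88 at 48 h. The cytosolic enzymes did not pass, with log2 changes of -0.23 for Shmt1 (adjusted p = 0.553) and -0.27 for Mthfd1 (adjusted p = 0.422). Without the first 48 h array 4 of the 9 were called, since Psph (adjusted p = 0.100), Mthfd2 (adjusted p = 0.0602) and Aldh1l2 (adjusted p = 0.241) were lost. Mthfd2 was also lost without the first 96 h array (adjusted p = 0.0530) and Psph without the second (adjusted p = 0.0738). Aldh1l2 was lost without any 1 of the untreated, 24 h, 48 h or 96 h arrays, with adjusted p up to 0.241, and with the replicate block (adjusted p = 0.0558).

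Earlier steps gave no call in the main limma fit. Between 24 h and 12 h limma called 0 of the 9, with 0 at an unadjusted p under 0.05 and 0% of all genes called. Between 48 h and 24 h it called 0 of the 9, with 1 at an unadjusted p under 0.05, where 0.527% of all genes were called higher and 1.14% lower. That 1 was Aldh1l2, with a log2 change of 1.11 ± 0.30 (SE, adjusted p = 0.12). Aldh1l2 was called higher in some other settings. Its limma adjusted p was 0.0355 with only genes of a mean log2 level of at least 5, and 0.0461 with a variance trend. With the replicate block Psph was called, higher at 48 h than at 24 h by 0.97 (adjusted p = 0.0432). The 96 h mean was the lowest of the 5 group means for all 9. The 48 h arrays were not tested against the 12 h arrays. The 96 h arrays of Aldh1l2 lay between its 12 h arrays. Over all times together, limma's F test called 6 of the 9, against 17% of all genes. They were Phgdh (adjusted p = 0.00365), Psat1 (0.000434), Psph (0.0361), Shmt2 (0.000497), Mthfd2 (0.0166) and Mthfd1l (0.000423). Shmt1 (0.155), Mthfd1 (0.0573) and Aldh1l2 (0.087) did not pass, and with the replicate block Mthfd1 did (0.0135). Without the second 96 h array the F test called 3 of the 9.

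The members differed in how much replicates varied. Pooled over groups, the within-group SD of the log2 level was 0.44 for Psph, 0.43 for Mthfd2 and 0.37 for Aldh1l2, above 99.1%, 98.9% and 97.7% of the 7063 genes with a mean log2 level of at least 6. Their median was 0.16. The other 6 members lay between 0.14 (Phgdh) and 0.21 (Shmt1). Before 96 h Psph and Mthfd2 were high on the same arrays. The third untreated array was above its group mean by 0.63 for Psph and 0.55 for Mthfd2, the third 24 h array by 0.45 and 0.39, and the first 48 h array by 0.38 and 0.40. Aldh1l2 did not follow them on the untreated arrays, where its largest deviation was 0.04. What sets these arrays apart was not tested. On the 96 h arrays the deviations were opposite, 0.13 and -0.13 for Psph and -0.21 and 0.21 for Mthfd2.

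Whether mitochondrial and cytosolic enzymes moved unequally was examined through the log2 difference between both genes of a pair on the same array. Such a difference compares changes, not amounts of transcript. Mthfd1l minus Mthfd1 was -0.12, -0.14 and -0.12 on the untreated arrays, -0.01 and -0.21 at 12 h, -0.04, -0.13 and -0.11 at 24 h, then 0.43 and 0.55 at 48 h, and -0.83 and -0.75 at 96 h. The 48 h arrays stood above and the 96 h arrays below all others, so they lay on opposite sides of the untreated ones. Shmt2 minus Shmt1 was 2.33, 2.05 and 2.35 on the untreated arrays, 2.49 and 2.45 at 48 h, and 1.26 and 1.28 at 96 h. Mthfd2 minus Mthfd1 was -1.81, -1.75 and -1.08 on the untreated arrays, -0.18 and -1.16 at 48 h, and -2.74 and -2.45 at 96 h. All 3 pairs had their lowest 2 arrays at 96 h and their highest group mean at 48 h. For Shmt2 minus Shmt1, too, both 48 h arrays were above all others.

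The main comparison of the pairs joined 48 h with 96 h (4 arrays) and set them against untreated, 12 h and 24 h (8 arrays). It gave -0.22 for Shmt2 minus Shmt1 (p = 0.414), -0.07 for Mthfd2 minus Mthfd1 (p = 0.907) and -0.04 for Mthfd1l minus Mthfd1 (p = 0.752) in two-sided exact permutation tests over 495 splits. Adjusted over the 3 pairs each p was 0.907. In each pair the 48 h mean lay above and the 96 h mean below the untreated mean. Joining both times lets such opposite shifts cancel, so these tests cannot decide whether the enzymes of a pair moved unequally. The mean of both 96 h arrays minus that of all 10 earlier arrays, a comparison chosen after the lowest arrays were seen and given with no test, was -0.90 for Shmt2 minus Shmt1, -1.21 for Mthfd2 minus Mthfd1 and -0.80 for Mthfd1l minus Mthfd1.

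**Figure D3:**
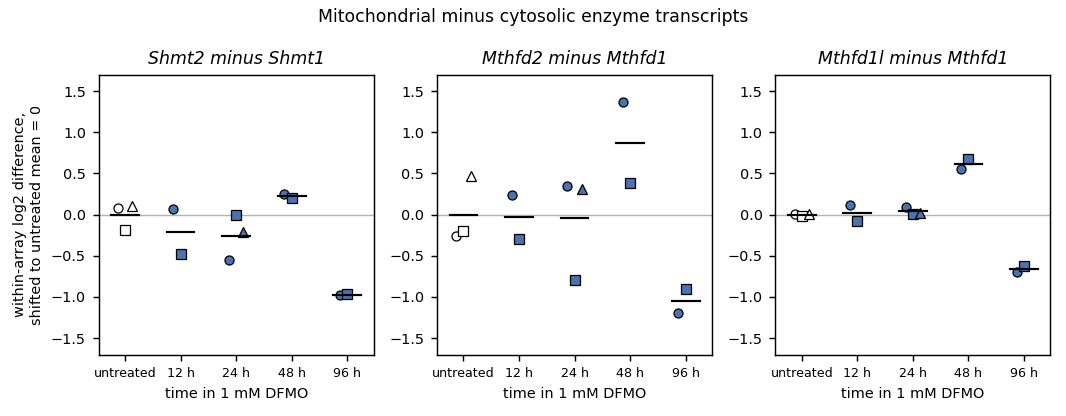
Within-array log2 difference of a mitochondrial minus a cytosolic enzyme transcript, shifted so that the untreated mean is 0, by time in 1 mM DFMO. Points are arrays, with open points for untreated cells and the shapes of the replicate numbers, and bars are group means. By group mean all 3 pairs are lowest at 96 h and highest at 48 h.

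The enzymes and carriers around the route were listed with earlier results of these data known. Of 11 folate carriers, trapping and recycling genes measured, 2 were lower and 0 higher at 96 h, where 10.1% of all genes were lower and 11.8% higher. Their median log2 change was -0.04. Folr1 (3.69), Folr2 (3.74), Aldh1l1 (3.36) and Ftcd (3.76) had mean untreated levels near the floor of the arrays, where a decrease can hardly show. Slc19a1, the reduced folate carrier of the plasma membrane, changed by -1.34 (limma adjusted p = 0.000232), and Fpgs, which adds the glutamate tail that holds folate in the cell, by -0.79 (adjusted p = 0.00289). Slc25a32, the carrier of folate into mitochondria, had a value of -0.11 (adjusted p = 0.734) and Slc46a1, the proton-coupled folate transporter, one of 0.39 (adjusted p = 0.09), neither past the test. Without the second 96 h array, or with the replicate block, 1 was called higher. At 48 h limma called 0 of the 11, 1 of them with an unadjusted p under 0.05, and with the block 1 was called higher.

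Of 6 genes that use the folate-bound carbon, 2 were lower and 1 higher at 96 h (10.1% and 11.8% of all genes), with a median log2 change of -0.13. Tyms, which makes thymidylate, changed by -1.60 (limma adjusted p = 9.71e-06), and Gart, an enzyme of purine synthesis, by -0.78 (adjusted p = 0.028). Mtrr, the reductase that keeps methionine synthase active, changed by 1.07 in the opposite direction (adjusted p = 0.00195), while methionine synthase itself, Mtr, did not pass (0.10, adjusted p = 0.442). At 48 h limma called 0 of the 6, although 4 had an unadjusted p under 0.05. Of 10 genes of glycine cleavage and of one-carbon supply from choline, 1 was lower at 96 h and 0 were higher, with a median of 0.00. The lower share is that of all genes (10.1%). The median untreated level of the 10 was 3.87, near the floor of the arrays, where a decrease can hardly show. The gene called lower was Gcsh, the carrier protein of the glycine cleavage system (-0.37, limma adjusted p = 0.0232). The call was lost without the first or the second 96 h array and without the first or the second untreated array. Without the first or the second 96 h array, or the second or the third untreated array, 1 of the genes that use the carbon was called lower at 96 h.

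Of 23 genes of serine and glycine transport and serine use, 8 were lower and 2 higher at 96 h (10.1% and 11.8% of all genes), with a median of -0.05. At 48 h 2 were lower and 0 higher (3.17% and 2.65% of all genes), with a median of -0.01, and with the replicate block 1 was higher. Slc38a4, an amino acid transporter, changed by -0.45 at 48 h (limma adjusted p = 0.0242) and -1.82 at 96 h (adjusted p = 1.14e-06). Sfxn1, which brings serine into mitochondria, had changes of -0.43 at 48 h (adjusted p = 0.00348) and, larger, -0.79 at 96 h (adjusted p = 1.15e-05). The 48 h call of Slc38a4 was lost without the third untreated or the first 48 h array (adjusted p up to 0.209), and that of Sfxn1 held without each array in turn (adjusted p up to 0.0384). Gcat, which acts on the threonine-derived precursor of glycine, changed by -1.50 at 96 h (adjusted p = 0.000307). Without the first 96 h array 5 of the list were lower. Serinc3, a membrane protein named for serine incorporation, changed by 0.86 (adjusted p = 0.000155).

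The list of ATF4 and amino acid response genes, which leaves out the 9 enzymes, split by time. It shares Slc6a9 and Cth with the list of serine and glycine transport and serine use. At 48 h 8 of its 32 measured genes were higher and 0 lower, with a median log2 change of 0.49 against -0.02 over all genes, of which 2.65% were higher and 3.17% lower. At 96 h 7 were higher and 9 lower, where 11.8% of all genes were higher and 10.1% lower, and the median was -0.04. Without the first 48 h array the count at 48 h was 1, and without the second it was 3; it was 2 without the first or the second untreated array. Without the first 96 h array the lower genes at 96 h numbered 4, and without the second 5.

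Atf4 itself had log2 levels of 8.93, 9.09 and 8.80 on the untreated arrays, 9.94 and 9.98 at 48 h, and 10.33 and 10.25 at 96 h. The 3 groups did not overlap. Its log2 change was 1.02 ± 0.08 at 48 h (SE, limma adjusted p = 0.000672) and 1.35 ± 0.08 at 96 h (SE, adjusted p = 4.09e-06). Ddit3, which encodes the stress factor CHOP, had changes of 1.28 at 48 h (adjusted p = 0.00798) and, larger, 2.64 at 96 h (adjusted p = 1.86e-05). Sesn2, a nutrient sensor, changed by 0.88 and 1.54 at these times, and Ppp1r15a, a phosphatase subunit that restores translation, by 0.65 and 0.86, each past the test. The 48 h calls of Ddit3, Sesn2 and Ppp1r15a were lost without the first 48 h array (adjusted p of 0.0795, 0.154 and 0.161), those of Sesn2 and Ppp1r15a also without the second or without 1 of the first 2 untreated arrays, and that of Sesn2 without the third. These transcripts were still higher at 96 h, when 7 of the 9 serine and one-carbon transcripts were lower. Only transcripts were measured here, and a link between these changes was not tested.

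Genes of amino acid metabolism were among the 9 of the list that fell at 96 h. Asns and Cth, and Chac1 for contrast, were chosen after their values were seen. Asns, asparagine synthetase, had log2 changes of 0.32 at 48 h (limma adjusted p = 0.251) and -0.72 at 96 h (adjusted p = 0.00521). Pck2, the mitochondrial phosphoenolpyruvate carboxykinase, had 0.44 (adjusted p = 0.464) at 48 h and -1.74 (adjusted p = 0.00242) at 96 h. Cth, which makes cysteine from cystathionine, had 0.72 (adjusted p = 0.431) at 48 h and -2.12 (adjusted p = 0.00839) at 96 h, which was lost without the first 96 h array (adjusted p = 0.0924). Chac1, a glutathione-degrading enzyme, passed at 48 h (1.10, adjusted p = 0.0344) and not at 96 h (-0.49, adjusted p = 0.246). Its 48 h call was lost without any 1 of the 48 h and 96 h arrays or of the first 2 untreated arrays, with adjusted p up to 0.269, and at 96 h it was called lower without the second untreated array (adjusted p = 0.0390).

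**Figure D4:**
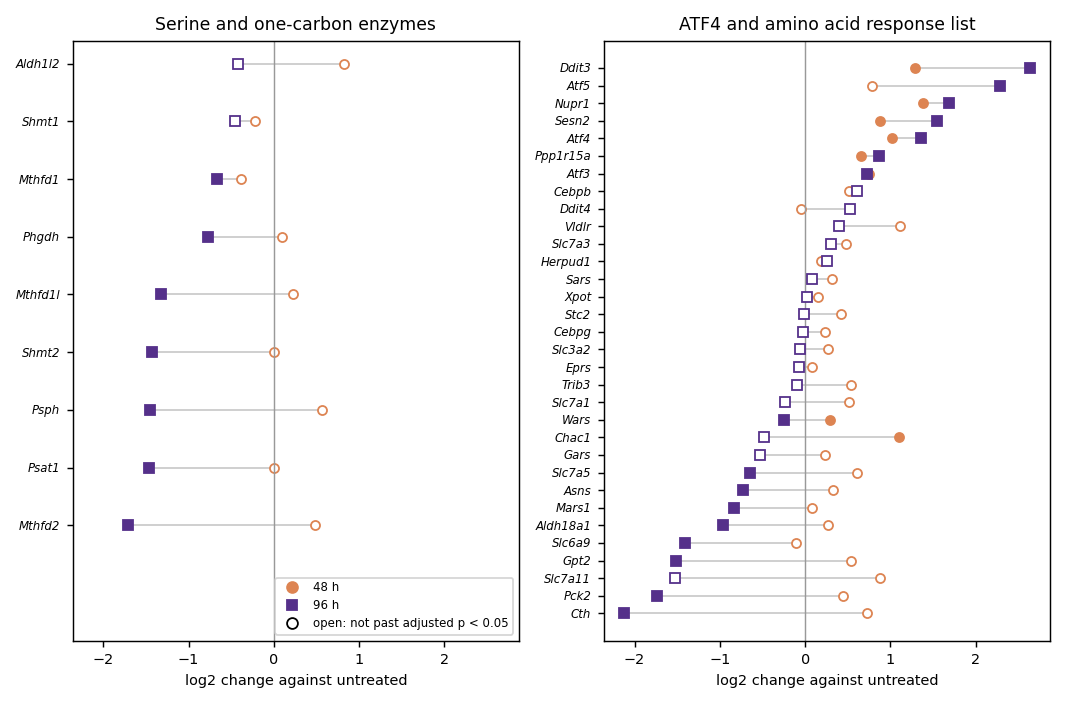
Log2 change against untreated cells at 48 h (circles) and 96 h (squares) for the 9 enzyme transcripts (left) and the 32 measured genes of the ATF4 and amino acid response list (right), with filled marks past a limma adjusted p of 0.05. At 48 h 8 of the listed genes are filled, all higher, and at 96 h 7 are higher and 9 lower. Both times share the same untreated arrays.

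Genes of cell division were lower at 48 h and 96 h in these G1-sorted cells. Of 21 S phase genes 17 were lower at 48 h and 21 at 96 h (3.17% and 10.1% of all genes), with median log2 changes of -0.82 and -3.04. Of 16 genes of G2 and M phase 12 were lower at 48 h and 16 at 96 h, with medians of -0.88 and -2.98. Mcm6, a subunit of the replicative helicase, had changes of -0.52 at 48 h (limma adjusted p = 0.0059) and -4.62 at 96 h (adjusted p = 3.42e-09), the first of which was lost without the second 48 h array (adjusted p = 0.0528). Without the second 48 h array 3 of the S phase genes were called at 48 h, without the first 48 h array 7, without the second untreated array 9 and without the third 11. The count of G2 and M phase genes at 48 h was 7 without the first 48 h array. At 96 h both counts were the same without any 1 array. The part of this change in the values of the 9 enzymes was not tested.

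Of 12 regulators, those of the MYC and E2F families with Nfe2l2, limma called 0 at 48 h, with 4 at an unadjusted p under 0.05, and 5 were lower and 1 higher at 96 h (10.1% and 11.8% of all genes). Without the first 96 h array 3 were lower, and without the first untreated or the second 24 h array 2 were higher. At 48 h 1, Nfe2l2, was called higher with the replicate block (adjusted p = 0.0499), without either 12 h array or without the second 24 h array. The count of higher regulators at 48 h was also 1 with centring, a mean log2 level of at least 5 or array weights. It was 1 as well with only the arrays of both groups, and with the 3 arrays left out together. E2f1, an activator of S phase genes, changed by -1.61 at 96 h (limma adjusted p = 0.000273). Nfe2l2, which encodes NRF2, a factor known to act on Atf4 and the serine route in human cancer cells, changed by 0.83 (adjusted p = 0.00122). Myc, chosen after its value was seen, did not pass (0.08, adjusted p = 0.872).

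For each of the 6 members that passed the F test, the transcripts most like it were found as those with the smallest root mean square difference between the 5 group means, each profile centred on its own mean, among 7054 genes with a mean log2 level of at least 6. For Mthfd2 these were Pck2 (0.0498) and Gpt2, the mitochondrial alanine aminotransferase (0.207). Pck2 was also the nearest to Psph (0.0934), followed by Dhrs9 (0.141), a short-chain dehydrogenase. The nearest to Phgdh were Ror1, a receptor of Wnt ligands (0.0192), and Mars1, the methionyl-tRNA synthetase (0.0237). Steap1 (0.0460) and Clcf1 (0.0505), a cytokine, were nearest to Psat1. Prr11 (0.0681) and S100a7a (0.0755) were nearest to Shmt2, and S100a7a (0.0645) and Dhrs9 (0.103) to Mthfd1l. Pck2, Gpt2 and Mars1 belong to the ATF4 list. Likeness over 5 group means describes these arrays and was not tested.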

How the data were processed

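Total RNA of sorted G1 cells was measured on 12 arrays (3, 2, 3, 2 and 2 per group). The authors deposited 1 table of log2 values per transcript cluster; RMA and Partek are named per the submitters' processing notes, without versions. RMA gives all arrays 1 distribution, so a shift of all transcripts one way would be hidden, and background left in the values makes folds of low transcripts too small. Sources used here name no genome build for the array.

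Of 35399 clusters, 21789 had 1 symbol in the platform annotation, 1621 several and 11989 none. Entrez identifiers of 21698 were found in RefSeq's table (GRCm38.p6), and 0 symbols changed. The cluster with the highest mean represented each of 999 genes with several, which left 19938 genes. The 9 members and all lists were chosen with earlier results of these data known.

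R 4.3.3 and limma 3.58.1 fitted a mean per group over all 12 arrays (empirical Bayes), with Benjamini-Hochberg adjustment over all genes and calls at an adjusted p under 0.05; the code was tested on simulated data. Pairs of enzymes were compared within arrays by exact permutation. Up to 4 genes of each list, those with the smallest F test p, and the 2 nearest profiles of each member were named. Some genes of the lists were not analysed here, and counts are over those measured. Same-number arrays of 24 h and untreated cells correlated with r of 0.153, 0.287 and 0.581 in their deviations. Same-number arrays of the other pairs of groups had r from -0.255 to 0.419. The second 24 h and first untreated arrays, of unlike number, had 0.235. An alternative took the replicate number as a block over all 12 arrays. The labels give the numbers but no shared batch, so this block may pair unrelated arrays. Other alternatives were centring, a filter on low levels, all clusters, a variance trend, array weights, only the compared arrays and each array left out. Figures used matplotlib 3.10.9, pandas 2.3.3 and Python 3.11.15.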

Additional observations from a re-analysis of the deposited data

Results flagged for a closer look

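The change against untreated cells differed between 96 h and 48 h for 7 of the 9 transcripts, all lower at 96 h. This is the limma test of 96 h against 48 h, in which the untreated arrays cancel. Over all genes 4.29% were called lower and 4.35% higher in it. The log2 difference, change at 96 h minus change at 48 h, was -0.87 for Phgdh, -1.47 for Psat1 and -2.01 for Psph, the enzymes of serine synthesis. It was -1.42 for Shmt2, -2.20 for Mthfd2, -1.55 for Mthfd1l and -1.25 for Aldh1l2, the mitochondrial folate enzymes. For all 7 both 96 h arrays were below both 48 h arrays, which held for 20.5% of all genes. Shmt1 and Mthfd1, the cytosolic enzymes, did not pass this test. The calls of Psph, Mthfd2 and Aldh1l2 depended on single arrays, as given above.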

How the results depend on the processing

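Of 1438 values of the members under the alternatives, 1375 kept their side of the threshold, 83 of these with a changed sign and not past it, 31 were no longer past it, 32 newly passed and 0 called values reversed. At 96 h against untreated cells 7 members were lower, 4 to 8 with 1 array left out and 7 to 9 under the other settings. At 96 h against 48 h the counts were 7, 4 to 7 and 6 to 7, and over all times (F test) 6, 3 to 8 and 5 to 8. At 48 h against untreated cells 0 members were higher, but 1 with only the arrays of both groups (Aldh1l2), 1 with the replicate block (Psph, 0.83, limma adjusted p = 0.0358) and 1 with 3 arrays left out together, and 0 to 1 with 1 array left out. At 48 h against 24 h it was 0, but 1 with a level of at least 5, 1 with the variance trend, 1 with 3 arrays left out (Aldh1l2) and 1 with the replicate block (Psph), and 0 to 1 with 1 array left out. The replicate block left the count at 24 h at 0 and that at 96 h against untreated cells at 7, and gave 6 at 96 h against 48 h, where Aldh1l2 was lost (adjusted p = 0.0558). The pairs gave -0.90 (Shmt2 minus Shmt1), -1.21 (Mthfd2 minus Mthfd1) and -0.80 (Mthfd1l minus Mthfd1) with 96 h against all earlier arrays, and -0.43 to -0.02, -0.55 to 0.30 and -0.28 to 0.18 with 1 array left out; without the untreated arrays they were -0.13, -0.05 and -0.05. All genes called at 96 h numbered 2360 higher and 2012 lower, 1560 to 2752 and 1374 to 2519 under the alternatives; at 48 h 528 (810 with the replicate block) and 632, 161 to 1074 and 214 to 1120; at 96 h against 48 h 868 and 855, 322 to 1171 and 426 to 1112. At 48 h the higher ATF4 list genes ranged from 1 to 10 and the lower S phase genes from 3 to 19. Groups of 2 or 3 arrays, a floor of background and 1 shared untreated group limit these values.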
